A study of Mus musculus with 16 samples.

Results

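The Reg family antimicrobial lectins Reg1, Reg3a, Reg3b and Reg3g were followed through the crypt-villus axis of the small intestine in wild-type and ROBO Crainbow mice. The members are the rows of these 4 gene symbols in both deposited matrices, out of 24421 genes listed. The rule that picked them names gene symbols and no measured value, but they were chosen with earlier results of these data known. Both matrices list 7 Reg genes, and the other 3, Reg2, Reg3d and Reg4, are given only for comparison. The study compared the stem cell lineage of normal and precancerous intestine by single-cell RNA sequencing of crypt isolates. The WT mice were outbred mice of wild-type genotype at postnatal day 16, and the ROBO mice were outbred mice of the same age that carried the ROBO Crainbow transgene. That transgene expresses RSPO3 or 1 of 2 PTPRK-RSPO3 fusions, each paired with its own fluorescent protein, after recombination by a Villin-driven Cre in the intestinal epithelium, so immune and stromal cells are not recombined by this driver. All mice were untreated. The labels list 8 samples and 2 droplet cartridges per genotype, but the deposited counts hold 1 matrix per genotype, so each genotype was 1 pooled sample. The number of mice behind each matrix is not given in the sources used here. No test between genotypes or cell classes was possible, and no p-value is given.

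Reg proteins are small secreted C-type lectins. Reg3g binds peptidoglycan and kills Gram-positive bacteria, Reg3b is its close relative with activity against Gram-negative bacteria as well, Reg3a is another mouse member of the Reg3 group, and Reg1 was first described as a protein of regenerating pancreatic islets and is also made by intestinal epithelium. In the small intestine Reg3b and Reg3g are produced by enterocytes and Paneth cells, and their transcription is raised by interleukin-22 acting through STAT3 and by bacterial signals acting through MyD88. Expression in the gut rises around weaning, when the microbiota changes.

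All 4 members lie in 1 cluster on mouse chromosome 6 (GRCm38, GENCODE annotation), where 6 Reg genes span 98.2 kb between 78370657 and 78468872. Reg3b (ENSMUSG00000071356) occupies 78370657 to 78373466 on the plus strand, Reg3a (ENSMUSG00000079516) 78380709 to 78383827 on the plus strand, Reg1 (ENSMUSG00000059654) 78422711 to 78428667 on the plus strand and Reg3g (ENSMUSG00000030017) 78466269 to 78468872 on the minus strand. Reg4 lies apart from them on chromosome 3. The 250 bases before the RefSeq start of each member (GRCm38.p6) are printed below because the members fell into pairs that moved together, Reg1 with Reg3a and Reg3b with Reg3g. They cover chr6:78425733-78425982 (plus strand) for Reg1, chr6:78380459-78380708 (plus strand) for Reg3a, chr6:78370635-78370884 (plus strand) for Reg3b and chr6:78468875-78469124 (minus strand) for Reg3g, read 5′ to 3′ along the gene. The RefSeq starts of Reg1 and Reg3b lie inside the longer GENCODE gene models. Capitals mark matches on either strand to TATAAA, to the STAT motif TTCNNNGAA and to the GATA motifs AGATAA or TGATAA.
Reg1: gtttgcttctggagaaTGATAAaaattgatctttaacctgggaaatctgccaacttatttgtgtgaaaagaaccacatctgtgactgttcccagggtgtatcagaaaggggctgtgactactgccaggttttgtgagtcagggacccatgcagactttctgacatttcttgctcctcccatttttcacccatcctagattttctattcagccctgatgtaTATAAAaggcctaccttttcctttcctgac
Reg3a: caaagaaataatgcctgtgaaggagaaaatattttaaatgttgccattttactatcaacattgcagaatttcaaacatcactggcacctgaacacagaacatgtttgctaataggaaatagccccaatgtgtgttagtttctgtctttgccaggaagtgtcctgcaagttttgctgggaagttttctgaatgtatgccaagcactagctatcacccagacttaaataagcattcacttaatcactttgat
Reg3b: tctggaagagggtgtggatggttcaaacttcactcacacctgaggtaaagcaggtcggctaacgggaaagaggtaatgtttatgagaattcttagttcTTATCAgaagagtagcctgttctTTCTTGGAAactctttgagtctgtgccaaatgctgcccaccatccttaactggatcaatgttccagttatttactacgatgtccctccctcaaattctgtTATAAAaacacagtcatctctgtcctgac
Reg3g: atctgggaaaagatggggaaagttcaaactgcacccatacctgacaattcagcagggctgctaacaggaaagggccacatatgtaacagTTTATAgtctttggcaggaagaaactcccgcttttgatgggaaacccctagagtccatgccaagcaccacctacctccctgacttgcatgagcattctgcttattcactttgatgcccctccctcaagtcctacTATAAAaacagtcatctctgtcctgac

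TATAAA stood 30, 29 and 27 bases before the start of Reg1, Reg3b and Reg3g, whereas the Reg3a window held none of the motifs searched. The STAT motif was found only in Reg3b, as TTCTTGGAA 129 bases before the start. A GATA match stood 234 bases before the start of Reg1 and another, on the reverse strand, 152 bases before that of Reg3b, and Reg3g had a further TATAAA on the reverse strand at 161 bases. Among 32851 mouse promoter windows of the same length, 12.4% held TATAAA, 7.02% the STAT motif and 16.6% a GATA motif, so a single match is common. The windows of Reg3b and Reg3g were 70.0% identical over 247 aligned bases and those of Reg3a and Reg3g 69.2% identical over 201, while Reg1 was 46.5% to 52.3% identical to the other members. The transcripts were also related, with 71.7% identity between Reg3a and Reg3b, 71.6% between Reg3b and Reg3g, 67.1% between Reg3a and Reg3g and 57.6% to 58.5% between Reg1 and the others. No pair shared a stretch as long as the 75-base read, although Reg3b and Reg3g shared 11 runs of 25 bases. How reads matching more than 1 member were counted is not given in the sources used here.

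The WT matrix held 1348 cells with 2682127 unique molecular identifiers (UMIs, each standing for 1 captured transcript) and a median of 1492 per cell. The ROBO matrix held 1249 cells with 2428435 UMIs and a median of 1610 per cell. Clustering without any Reg gene gave 11 clusters in 8 classes, named "-like" from marker lists. The sums of the same lists are given next as a description and are no independent check of the names. Bottom enterocyte-like cells carried the bottom enterocyte markers at a summed 139 UMIs per 10000, against 71.0 in transiently amplifying-like, 47.7 in middle enterocyte-like and 9.04 in top enterocyte-like cells. The middle enterocyte markers stood at 579 per 10000 in middle enterocyte-like cells but at 1665 in top enterocyte-like cells, so they did not single out the class that carries their name. That class was named because, of all lists, this one had the highest mean rise in its clusters over the rest. Immune-like cells carried the immune markers at 449 per 10000, against 0.608 or less in every other class. Crypt cells here are the stem cell-like and transiently amplifying-like cells pooled. Each of these classes held a shallow cluster named on only 4 raised markers. That of the stem cell-like class had 329 cells with a median of 821 UMIs (4 of 16 markers). That of the amplifying class had 346 cells with a median of 881.5 UMIs (4 of 22 markers) and was led by Rn45s. A level is the sum of a gene's UMIs over the cells of a class per 10000 UMIs of those cells. Intervals are 95% intervals that cover counting error only, and since a few cells hold many of the UMIs they are too narrow for the spread between cells, mice or libraries.

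A feature of the matrices bears on every value below. In file order the UMI totals of the cells fell and then jumped back up, which divided the WT matrix into 5 runs and the ROBO matrix into 8 runs of consecutive cells. The cell names are plain numbers, so a run could not be tied to a labelled sample, cartridge or mouse, and runs are used here as a description and not as replicates. Bottom enterocyte-like cells made up 20.6% to 28.4% of 5 runs, called bottom-rich here (WT runs 1 and 5, ROBO runs 6, 7 and 8, 999 cells), and 0% to 1.27% of the other 8, called bottom-poor (1598 cells). This division was made after the data were seen. Median UMIs per cell ranged from 1292 to 2710 in bottom-rich and from 1034.5 to 1533 in bottom-poor runs. Other genes separated the kinds of run without overlap. The sucrase gene Sis ranged from 3.86 to 5.46 per 10000 in bottom-rich and from 0 to 0.188 in bottom-poor runs, and the arginase gene Arg2 from 2.22 to 2.76 against 0.124 to 0.484. The lactase gene Lct was lower in bottom-rich runs, at 3.29 to 7.98 against 14.0 to 20.2, as was the lipoprotein gene Apoa4, at 32.3 to 91.9 against 237 to 383. What set the kinds of run apart was not tested, and mouse, preparation and library cannot be told apart in it.

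**Figure D1:**
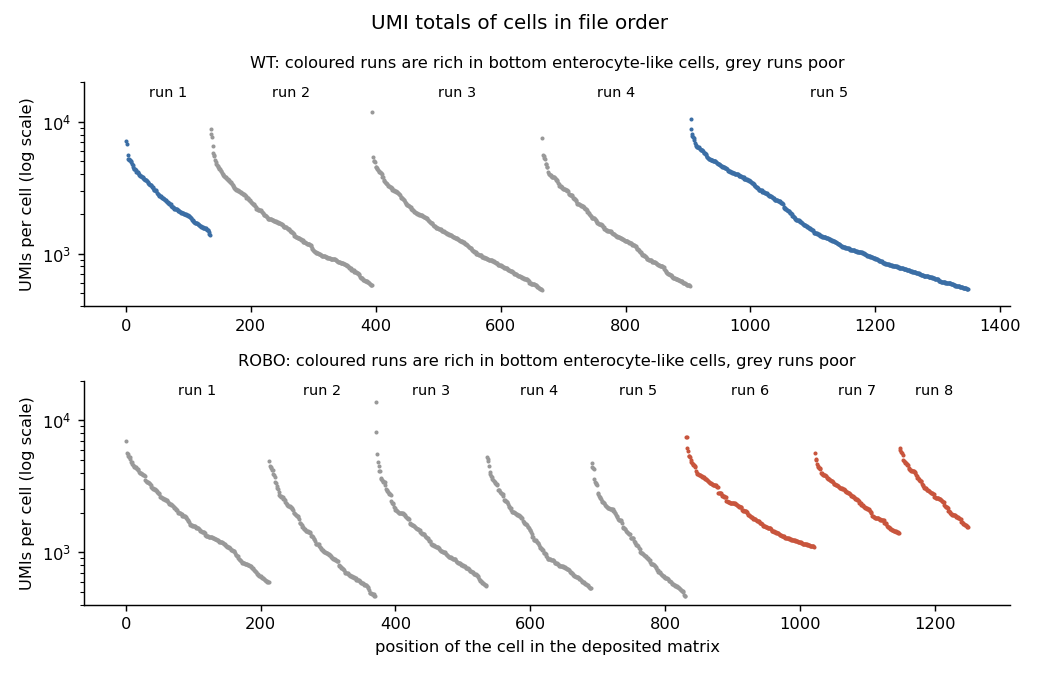
UMIs per cell (log axis) against the position of the cell in the deposited matrix, for WT (top) and ROBO (bottom), with 1 point per cell. Each upward jump starts a run, 5 in WT and 8 in ROBO, and bottom-rich runs are coloured and bottom-poor runs grey.

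Reg1 was almost absent from bottom-poor runs and abundant in bottom-rich runs. Its level in the WT runs, in file order, was 9.18, 0.631, 0.772, 0.451 and 7.08 per 10000. In the ROBO runs it was 0.334, 0.661, 0.375, 0.207, 0.254, 6.57, 9.87 and 14.8. The lowest bottom-rich run thus stood above the highest bottom-poor run in both genotypes. Reg1 was also the leading gene by fold of the bottom enterocyte-like cluster (20.1 per 10000 over all runs). The share of those cells divided the runs, so the Reg1 level of whole runs is not independent of that division. Reg3a, detected with far fewer UMIs, followed the same order. Its WT levels were 0.692, 0.0204, 0.176, 0.0237 and 0.426 per 10000. Its ROBO levels were 0, 0.0881, 0.0750, 0, 0.0509, 1.2, 0.935 and 0.492. The bottom-poor runs of Reg3a rested on at most 8 UMIs each.

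Reg3b ran the opposite way. Its WT levels in file order were 0.559, 15.3, 10.5, 16.9 and 0.734 per 10000. In the ROBO runs they were 6.51, 11.9, 9.72, 12.4, 10.3, 0.929, 1.24 and 0.689. Every bottom-poor run was above every bottom-rich run, the nearest values being 6.51 and 1.24. Reg3g, its partner in the antibacterial pair, was ordered alike over a smaller range. Its WT levels were 1.14, 2.5, 1.9, 3.20 and 0.702 per 10000. Its ROBO levels were 1.86, 3.79, 2.55, 3.07, 1.93, 0.498, 0.513 and 0.624. The 2 kinds of run did not overlap for any of the 4 members. Nor did they for Sis, Arg2, Lct and Apoa4 above, so the lack of overlap is not particular to the Reg genes. The share of all genes without overlap is not given here. Single cells weighed on some of these values, since 1 cell gave 28.3% to 44.4% of the Reg3b UMIs of each of ROBO runs 2 to 5 and 59.3% of the Reg3g UMIs of ROBO run 2.

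**Figure D2:**
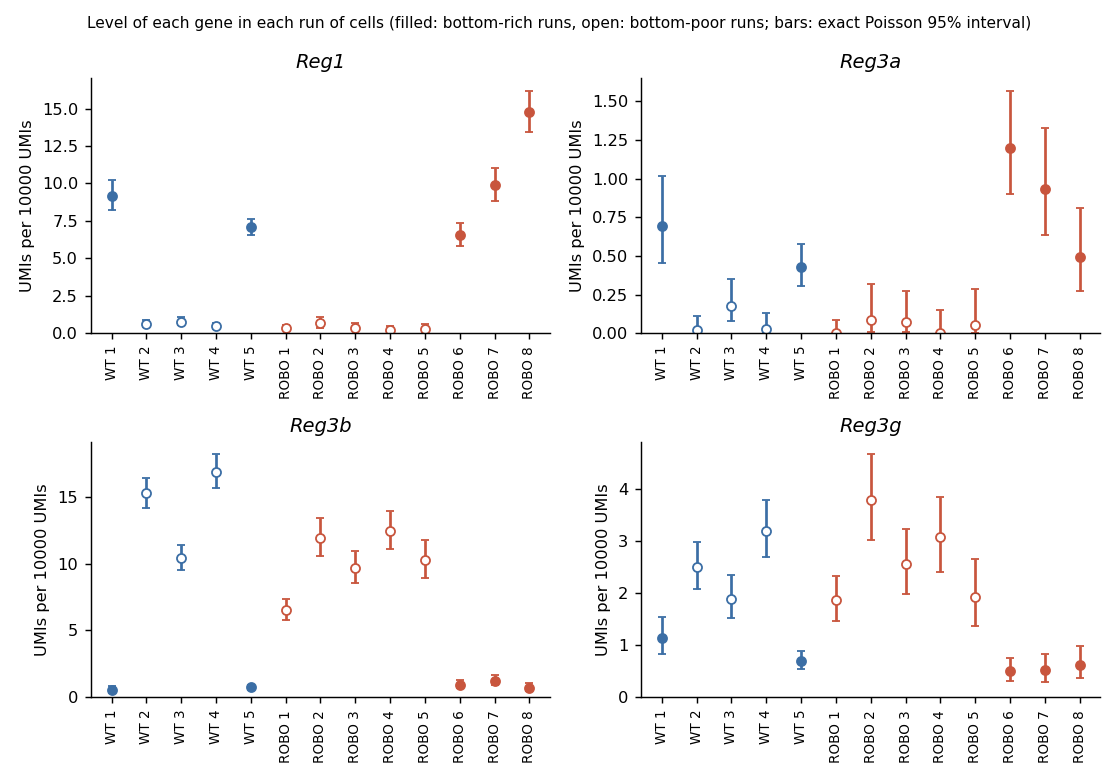
Level of each member (UMIs per 10000) in each run of the WT and ROBO matrices, with bars for exact Poisson 95% intervals, filled points for bottom-rich runs and open points for bottom-poor runs. Reg1 and Reg3a were high where Reg3b and Reg3g were low.

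Summed over runs of a kind, Reg1 was 12.4-fold higher in bottom-rich than in bottom-poor runs in WT (log2 3.63, 95% interval 3.31 to 3.96) and 27.3-fold higher in ROBO (log2 4.77, 4.36 to 5.21). Reg3a was higher by 2.78 on the log2 scale in WT (1.81 to 3.90), or by 4.52 without WT run 3, and by 4.63 in ROBO (3.36 to 6.29). Reg3b was 20.7-fold lower in WT (16.8 to 25.9) and 10.1-fold lower in ROBO (8.26 to 12.5). Reg3g was 3.04-fold lower in WT (2.44 to 3.81) and 4.73-fold lower in ROBO (3.57 to 6.36). All 4 members therefore passed a 2-fold difference in both genotypes, whereas 6.44% of the genes counted were 2-fold higher and 6.44% 2-fold lower in WT, and 7.94% were higher and 7.6% lower in ROBO. A gene was counted with at least 20 UMIs over both sides. For Reg1, the leading gene of the bottom enterocyte-like cluster, the fold is not independent of how the runs were divided.

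The split was also seen among crypt cells taken alone, although this pool differed in make-up, with 91 stem cell-like beside 418 transiently amplifying-like cells in bottom-rich runs and 585 beside 332 in bottom-poor runs. The amplifying cells themselves came from different clusters, since 1 of the 2 clusters so named, with 404 cells, lay to 83.2% in bottom-rich runs. In transiently amplifying-like cells alone Reg3b stood at 0.345 per 10000 in bottom-rich and 10.8 in bottom-poor runs. Over the pooled crypt cells, Reg3b stood at 0.185 per 10000 in bottom-rich runs of WT (13 UMIs in 303 cells) and at 13.8 in bottom-poor runs (1131 UMIs in 445 cells), a 74.75-fold difference with an interval of 43.5 to 141. In ROBO crypt cells the values were 0.472 (26 UMIs in 206 cells) and 8.53 (656 UMIs in 472 cells), an 18.1-fold difference (12.2 to 27.9). The size of these folds moved with single runs, to 116 in WT without run 1, 39.0 in WT without run 5 and 45.5 in ROBO without run 7. Reg3g in crypt cells was 9.45-fold lower in bottom-rich runs of WT and 6.23-fold lower in those of ROBO. Reg1 in crypt cells was 2.31-fold higher in bottom-rich runs of WT (1.73 to 3.11) and 5.12-fold higher in those of ROBO (3.32 to 8.15), but its level in the crypt cells of bottom-rich runs was no higher than in immune-like cells, as given below. Reg3a had only 13 and 10 UMIs in the crypt cells of WT and ROBO and was not counted there. The 2-fold shares over all genes counted in crypt cells were 5.5% higher and 6.24% lower in WT, and 8.01% higher and 7.25% lower in ROBO.

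Because the runs differed this much, the position of each member along the crypt-villus axis was read within a kind of run. In bottom-rich runs, Reg1 was highest in the enterocytes. It stood at 20.4 per 10000 (19.3 to 21.6) in bottom enterocyte-like cells and at 20.1 (18.6 to 21.7) in middle enterocyte-like cells. Pooled over genotypes, these neighbours did not differ beyond counting error. By genotype they did, in opposite directions. WT had 16.1 (14.7 to 17.5) in bottom and 20.6 (18.5 to 23.0) in middle cells, and ROBO 25.9 (24.0 to 28.0) and 19.6 (17.5 to 21.9). Not every run shared the order of its genotype, as WT run 5 (17.4 and 16.8) and ROBO run 7 (20.7 and 31.9) show. Crypt cells held 1.94 per 10000 (1.71 to 2.20) and secretory-like cells, the goblet and Paneth group, 2.08 (1.43 to 2.94). Both were within the counting interval of immune-like cells, at 1.74 (0.794 to 3.30, 9 UMIs), a class that should lack Reg1. The Reg1 of crypt and secretory cells in these runs was therefore not above that background at this depth. Only 14 top enterocyte-like cells lay in bottom-rich runs, and none held a Reg1 UMI. In bottom-poor runs Reg1 was at 0.629 per 10000 in crypt cells, 0.446 in middle and 0.136 in top enterocyte-like cells, with 0 UMIs in 66 secretory-like cells, which allows a level of up to 0.395.

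Summed over the bottom-rich runs of both genotypes, Reg3a was shifted further up the axis than Reg1. In bottom-rich runs it reached 3.07 per 10000 (2.49 to 3.73, 99 UMIs) in middle enterocyte-like cells, 0.896 (0.665 to 1.18, 50 UMIs) in bottom enterocyte-like cells and 0.112 (0.0610 to 0.187, 14 UMIs) in crypt cells. The 3 intervals did not overlap. No Reg3a UMI was found in any of the 230 top enterocyte-like or 46 immune-like cells, and 1 was found among 126 secretory-like cells. Pooled over genotypes, the shift also showed in the number of Reg1 UMIs per Reg3a UMI in these runs. That number was 22.8 (17.2 to 30.9) in bottom and 6.57 (5.31 to 8.20) in middle enterocyte-like cells. ROBO weighed most in it, with 639 Reg1 and 22 Reg3a UMIs in bottom and 317 and 69 in middle cells. WT had 501 and 28 against 333 and 30. WT run 1 did not share the fall, with 98 and 9 in bottom and 187 and 15 in middle cells. In the middle class 5 cells held 46.5% of the Reg3a UMIs. The middle enterocyte-like cells of bottom-rich runs belonged mostly to a cluster of 132 cells led by Sis, and those of bottom-poor runs to a cluster of 364 cells led by Cubn and Lct, so the class did not hold the same cells in both kinds of run.

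Reg3b was spread over more classes than Reg1 or Reg3a. In bottom-poor runs it stood at 18.6 per 10000 (17.6 to 19.7) in middle enterocyte-like cells. The crypt classes came next, the stem cell-like cells with 11.4 (10.8 to 12.1) and the transiently amplifying-like cells with 10.8 (9.95 to 11.8), ahead of the secretory-like cells with 5.79 (4.35 to 7.55) and the top enterocyte-like cells with 4.31 (3.59 to 5.13). Stem and transiently amplifying cells were not separated beyond counting error. Many of them lay in the shallow clusters named on 4 markers, 271 of 585 stem cell-like and 264 of 332 amplifying cells. Reg3b stood at 12.5 and 12.9 per 10000 there and at 11.1 and 8.45 in the deeper cluster of each class. The top enterocyte level rested on WT run 2, which gave 86 of its 127 UMIs, and without that run it was 1.73 (1.24 to 2.34), below the interval of secretory-like cells. The order is that of sums over runs. Taken run by run, Reg3b was lower in stem cell-like than in middle enterocyte-like cells in 5 of the 8 bottom-poor runs and higher in the other 3, WT run 4 and ROBO runs 1 and 4. It was lower in transiently amplifying-like cells in 7 of 8 and in top enterocyte-like cells in 8 of 8. Immune-like cells of these runs held 3.63 per 10000 (1.98 to 6.08, 14 UMIs in 22 cells), an interval that secretory-like and top enterocyte-like cells overlapped, the latter also without WT run 2, and middle enterocyte and crypt cells did not. In bottom-rich runs the order was different. Middle and bottom enterocyte-like cells stood at 1.86 (1.42 to 2.39) and 1.61 per 10000 (1.30 to 1.98), transiently amplifying-like cells at 0.345 (0.207 without ROBO run 7), secretory-like cells at 0.0651, and none of 91 stem cell-like or 24 immune-like cells held a Reg3b UMI. Without ROBO run 6 the middle enterocyte level was 1.23. Reg3b in bottom enterocytes of bottom-poor runs rested on 6 cells and is not read.

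Reg3g was ordered like Reg3b. In bottom-poor runs it stood at 3.78 per 10000 (3.33 to 4.27) in middle enterocyte-like cells. Stem cell-like cells had 2.45 (2.17 to 2.77), transiently amplifying-like cells 2.10 (1.72 to 2.54), secretory-like cells 1.61 (0.900 to 2.65) and top enterocyte-like cells 1.42 (1.03 to 1.93). After the middle enterocytes, each class overlapped its neighbour in this order. The secretory value rested on 15 UMIs, 7 of them in WT run 3, and was 0.994 without that run. For top enterocyte-like cells WT run 2 gave 32 of the 42 UMIs, and without it the level was 0.421 (0.202 to 0.775), which no longer reached the interval of secretory-like cells. Reg3g too was not highest in middle enterocytes in every run, since stem cell-like cells stood above them in 2 of 8 bottom-poor runs, ROBO runs 1 and 4, and top enterocyte-like cells in 2 of 8. ROBO run 2 had the highest middle enterocyte level, 13.6 per 10000, against 0.577 to 6.43 in the other 7. Immune-like cells held 1 UMI, at 0.259 per 10000 (0.00656 to 1.44). Secretory-like and top enterocyte-like cells overlapped that interval, the latter also without WT run 2, and middle enterocyte and crypt classes did not. In bottom-rich runs Reg3g stood at 1.70 (1.28 to 2.22) in middle and 1.16 (0.899 to 1.48) in bottom enterocyte-like cells and at 0.336 in transiently amplifying-like cells, and 0 of 91 stem cell-like cells held a UMI. Each Reg3g UMI was matched by 4.66 Reg3b UMIs (4.08 to 5.34) in the stem cells, 5.16 (4.19 to 6.41) in the amplifying cells and 4.93 (4.30 to 5.66) in the middle enterocytes of bottom-poor runs, and by 1.03 to 1.38 in the transiently amplifying, bottom and middle enterocyte-like cells of bottom-rich runs. Reg3b thus fell more steeply than Reg3g between the kinds of run.

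**Figure D3:**
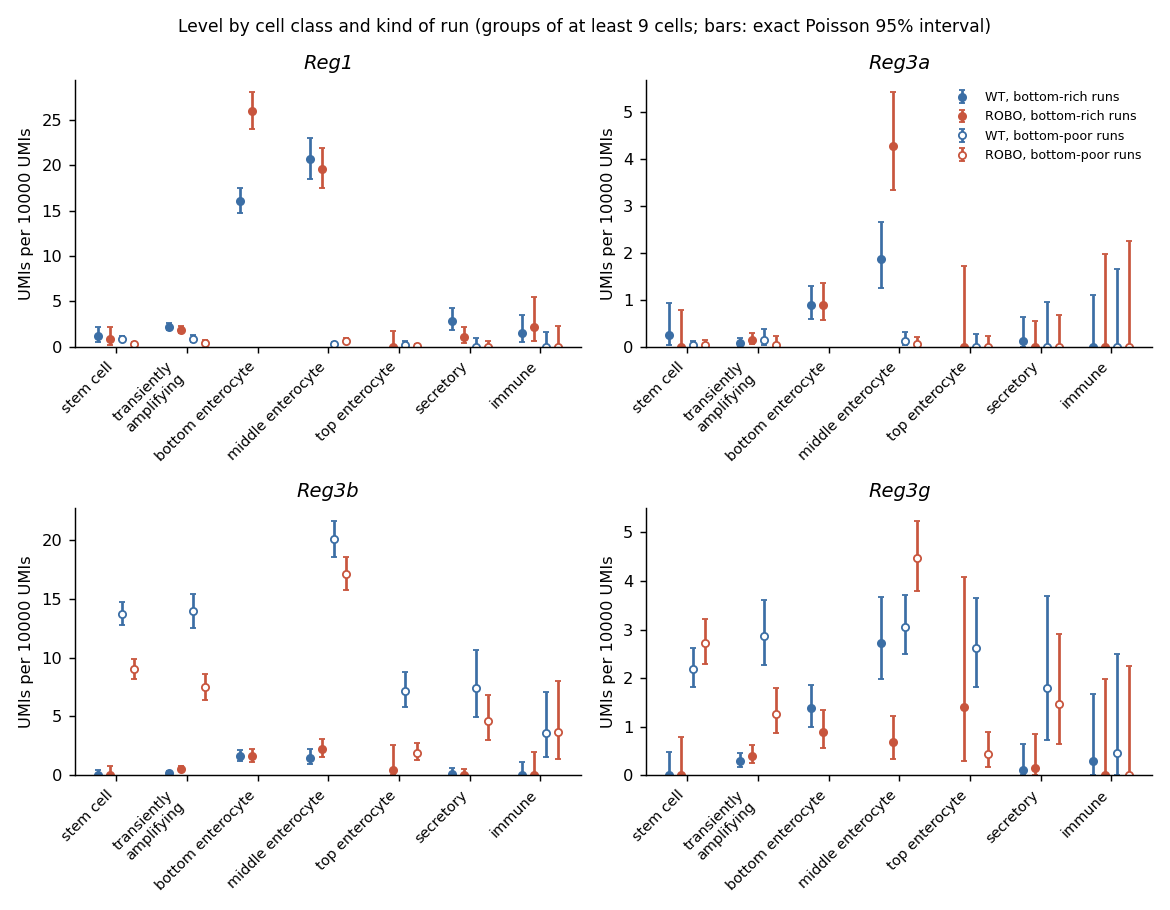
Level of each member (UMIs per 10000) by cell class for WT and ROBO in bottom-rich (filled) and bottom-poor (open) runs, with exact Poisson 95% intervals. Reg1 and Reg3a peaked in the enterocytes of bottom-rich runs, and Reg3b and Reg3g, summed over the bottom-poor runs of both genotypes, were highest in middle enterocyte-like cells, an order that some single runs did not share.

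The step from crypt to bottom enterocyte, taken within each genotype, depended on the runs in its direction for Reg3b and Reg3g, and in its size only for Reg1, which fell from 27.1- to 14.4-fold in ROBO when bottom-rich runs alone were kept, and for Reg3a. Over all runs, Reg1 rose 10.9-fold in WT (log2 3.45, 3.22 to 3.68) and 27.1-fold in ROBO (log2 4.76, 4.48 to 5.05). Reg3a was higher by 3.35 on the log2 scale in WT (2.36 to 4.43) and by 3.56 in ROBO (2.42 to 4.80). Reg3b was 4.30-fold lower in bottom enterocyte-like than in crypt cells of WT (3.29 to 5.73) and 3.19-fold lower in ROBO (2.32 to 4.51), and Reg3g differed by -0.08 in WT (-0.59 to 0.40) and -0.72 in ROBO (-1.43 to -0.08) on the log2 scale. Of the genes counted, 6.34% were 2-fold higher and 15.4% 2-fold lower in WT, and 6.87% and 18.8% in ROBO. But 237 of the 243 bottom enterocyte-like cells lay in bottom-rich runs, against 509 of the 1426 crypt cells, so this contrast mixed the class with the run.

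Within bottom-rich runs alone, all 4 members were higher in bottom enterocyte-like than in crypt cells of both genotypes. Reg1 was 7.81-fold higher in WT (6.48 to 9.46) and 14.4-fold higher in ROBO (11.7 to 18.02). Reg3a was 9.04-fold higher in WT (3.86 to 24.5) and 7.03-fold higher in ROBO (2.90 to 19.5). Reg3b turned from lower to higher, at 8.69-fold in WT (4.65 to 17.4) and 3.44-fold in ROBO (2.05 to 5.87). Reg3g was 5.40-fold higher in WT (3.05 to 9.94) and 2.46-fold higher in ROBO (1.28 to 4.75). The share of all counted genes that were 2-fold higher in this comparison was 7.44% in WT and 7.44% in ROBO. The Reg3b ratio moved with single runs, to 16.4-fold in WT without run 1, 1.77-fold (0.443 to 6.48) without run 5 and 6.41-fold in ROBO without run 7, and Reg1 in WT was 4.50-fold higher without run 5. The crypt side was thin, with 13 Reg3b UMIs in WT, 5 cells holding 96.2% of the 26 in ROBO, and 7 Reg3a UMIs in each genotype.

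**Figure D4:**
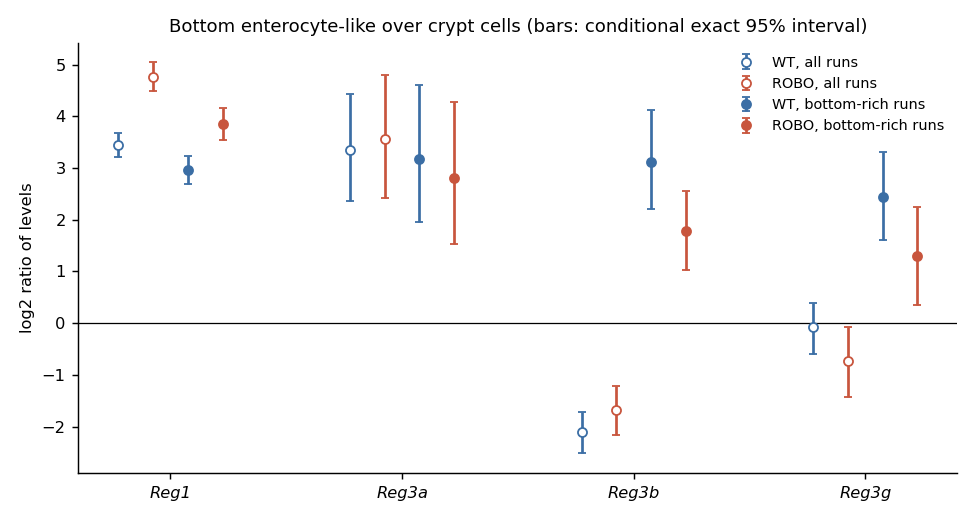
Log2 ratio of bottom enterocyte-like over crypt cells for each member in WT and ROBO, over all runs (open) and in bottom-rich runs only (filled), with conditional exact 95% intervals and a line at 0. Reg1 and Reg3a lay above 0 in both, and Reg3b moved from below 0 to above 0 when only bottom-rich runs were kept.

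Within a class, a minority of cells carried most of each transcript. Reg1 was found in 214 of 1348 WT cells and 176 of 1249 ROBO cells, with up to 77 and 76 UMIs in a cell. Cells with 10 or more Reg1 UMIs, 25 in WT and 33 in ROBO, held 58.4% and 69.1% of the transcripts. Of these cells, 57 lay in bottom-rich runs and 1 in bottom-poor runs, and in bottom-rich runs they made up 34 of 237 bottom and 20 of 141 middle enterocyte-like cells. Reg3b was found in 295 WT and 256 ROBO cells with up to 115 UMIs in each genotype, and 56 WT and 29 ROBO cells with 10 or more held 69.4% and 62.6% of its transcripts. Of those, 82 lay in bottom-poor runs and 3 in bottom-rich runs. In bottom-poor runs they included 36 of 585 stem cell-like, 13 of 332 transiently amplifying-like and 30 of 355 middle enterocyte-like cells, while none of 22 immune-like cells reached 10. Reg3g had 10 such cells in WT and 7 in ROBO, with up to 40 and 51 UMIs. Reg3a reached 9 UMIs in a WT and 14 in a ROBO cell.

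If the UMIs of a class had been spread evenly over its cells by depth, 94.6% of bottom enterocyte-like cells in bottom-rich runs would have held a Reg1 UMI, and 49.4% did. For Reg3b in middle enterocyte-like cells of bottom-poor runs 89.8% would have, and 39.2% did, and in crypt cells 75.5% would have, and 29.7% did. Immune-like cells of bottom-poor runs held Reg3b in 40.9% of cells against 42.8% for an even spread, with at most 3 UMIs in a cell. The unthinned share of cells with Reg3b was therefore no higher in epithelial classes than in immune-like cells, and the classes differed in level and in cells with many UMIs. With every cell thinned to 912 UMIs, the percentage holding Reg3b in bottom-poor runs was 34.7% (29.1 to 40.6) in middle enterocyte-like, 23.2% (19.9 to 26.8) in crypt and 14.3% (1.78 to 42.8, 2 of 14 cells) in immune-like cells. The thinned share with Reg1 in bottom-rich runs was 40.4% (33.7 to 47.4) in bottom and 41.0% (32.2 to 50.3) in middle enterocyte-like cells, 10.6% (7.85 to 13.9) in crypt and 13.6% (2.91 to 34.9, 3 of 22 cells) in immune-like cells.

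Reg3b and Reg3g were found in the same cells more often than in others. In thinned epithelial-like cells of bottom-poor runs, 38 of 543 WT cells held both, and Reg3b was present in 76.0% of cells with Reg3g against 23.1% of cells without it. In ROBO, 25 of 538 cells held both, and Reg3b was present in 73.5% of cells with Reg3g against 17.9% of the rest. Spearman's rho across these cells, which share libraries and depth, was 0.41 in WT and 0.38 in ROBO. Reg1, though abundant in the same enterocyte classes as Reg3a, was hardly associated with the others in single cells, with rho of at most 0.08 in bottom-rich runs of either genotype. Reg3a and Reg3g had a rho of 0.20 in WT and 0.30 in ROBO there.

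The question of the study, WT against ROBO, gave small differences for these genes in the single-cell counts. The paper also examined Reg3b by RNA FISH on tissue sections and described the cells expressing it as expanded in ROBO small intestine. The Reg3b level over all cells, given below, went the other way. Sections of tissue and counts from crypt isolates are unlike measures, and the difference between them was not tested. Over all cells, Reg1 stood at 4.09 per 10000 in WT and 4.60 in ROBO, which is 0.17 on the log2 scale (0.05 to 0.29). Reg3a stood at 0.283 and 0.428, a log2 ratio of 0.60 (0.16 to 1.04). Reg3b stood at 7.56 and 5.80, a log2 ratio of -0.38 (-0.48 to -0.28). Reg3g stood at 1.69 and 1.66, a log2 ratio of -0.03 (-0.23 to 0.17). These values moved with single runs. With each of the 13 runs left out in turn, Reg1 ranged from -0.38 (without ROBO run 8) to 0.90 (without WT run 5), Reg3a from -0.14 (without ROBO run 6) to 1.05 (without WT run 5), Reg3b from -0.95 (without WT run 5) to -0.0037 (without WT run 4) and Reg3g from -0.42 to 0.23. Only Reg3b kept its sign, but without WT run 4 almost no difference was left. Over all cells and runs, no member reached a 2-fold difference, as was true of all but 2.77% of the 10634 genes counted. Within bottom-rich runs the log2 ratios were 0.37 for Reg1, 0.87 (0.41 to 1.35) for Reg3a, 0.48 (0.06 to 0.91) for Reg3b and -0.62 (-1.11 to -0.15) for Reg3g, where 5.62% of genes passed 2-fold. Within bottom-poor runs they were -0.78 (-1.32 to -0.25) for Reg1, -0.55 (-0.66 to -0.45) for Reg3b and 0.02 (-0.20 to 0.24) for Reg3g, where 2.79% of genes passed, and Reg3a had 15 UMIs and was not counted. Reg1 and Reg3b thus had opposite signs in the kinds of run, a difference that was not tested.

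For Reg3b in bottom-poor runs, 3 WT runs ranged from 10.5 to 16.9 per 10000 and 5 ROBO runs from 6.51 to 12.4, which overlapped. For Reg1 in bottom-rich runs, WT runs stood at 7.08 and 9.18 and ROBO runs between 6.57 and 14.8, which also overlapped. For Reg3g in bottom-rich runs, WT runs stood at 0.702 and 1.14 and ROBO runs between 0.498 and 0.624, with no overlap. These were only 2 WT and 3 ROBO runs, and the share of all genes so separated is not given here. The lack of overlap therefore does not show a genotype difference. In bottom-poor runs the WT runs of Reg3g, from 1.9 to 3.20, lay within the range of the ROBO runs, from 1.86 to 3.79. The share of thinned epithelial-like cells with Reg1 differed between genotypes by 0.187 percentage points (-2.65 to 3.03), and that with Reg3b by -4.23 points (-7.49 to -0.97).

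Class by class, larger genotype differences rested on few cells or few runs. Reg1 in bottom enterocyte-like cells stood at 15.6 per 10000 in WT and 25.9 in ROBO, which is 0.73 on the log2 scale (0.56 to 0.90), with WT runs at 12.3 and 17.4 and ROBO runs between 19.8 and 36.5. Reg3a in middle enterocyte-like cells stood at 0.691 and 1.41, a log2 ratio of 1.03 (0.42 to 1.66), which was 0.10 (-0.64 to 0.84) without ROBO run 6, and 5 cells held 64.8% of the ROBO UMIs. In bottom-rich runs, Reg3a in that class ranged from 1.73 to 2.01 over the WT runs and from 1.98 to 5.45 over the ROBO runs. Reg3b in top enterocyte-like cells stood at 7.15 and 1.75, a log2 ratio of -2.03 (-2.65 to -1.44), and 5 cells held 86.7% of the WT UMIs. One WT run was at 14.97 in that class and the other bottom-poor WT runs at 1.28 and 1.34, beside 0.941 to 2.93 over the bottom-poor ROBO runs, and without that run, WT run 2, the log2 ratio was 0.22. Reg3g in the cluster of middle enterocytes led by Sis stood at 3.07 in WT and 0.692 in ROBO.

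**Figure D5:**
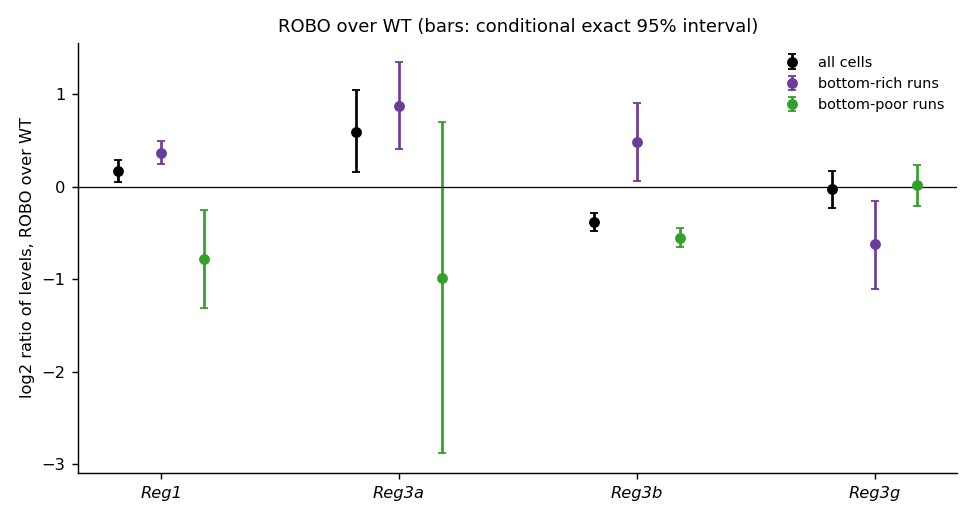
Log2 ratio of ROBO over WT for each member over all cells, in bottom-rich runs and in bottom-poor runs, with conditional exact 95% intervals and a line at 0. Over all cells the 4 members lay between -0.38 and 0.60, and Reg1 and Reg3b lay on opposite sides of 0 in the kinds of run.

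The genes that act upstream of the Reg3 lectins were mostly near the detection limit or flat between genotypes. Of 7 listed cytokines only Il18 had enough UMIs to be counted, at 0.425 per 10000 in WT and 0.498 in ROBO. Il22, the cytokine that induces Reg3g, had 2 UMIs in WT and 7 in ROBO, and Il17a 0 and 6. A single cell held all 6 Il17a UMIs, and a single cell held 55.6% of the Il22 UMIs. All ROBO UMIs of both genes lay in bottom-rich runs, so these counts do not show a genotype difference. Of 14 receptor and signal genes, 11 were counted and 1, Tlr2, a receptor for bacterial lipoproteins, was 2-fold lower in ROBO (21 against 8 UMIs). Among all genes counted, 2.77% passed 2-fold in either direction. The median log2 ratio of the list was 0.10, against 0.00 over all genes. Il22ra1, the receptor chain for interleukin-22, had 175 and 184 UMIs, and Stat3, which carries its signal, 255 and 219. Between the kinds of run the list had no common direction. Of 10 of its genes counted in each genotype, 0 were 2-fold higher and 1, Tlr2, was 2-fold lower in bottom-rich runs of WT, and none passed in either direction in ROBO, with a median log2 ratio of -0.35 in WT and 0.05 in ROBO against 0.08 and 0.10 over all genes. Among all genes counted, 6.44% were 2-fold higher and 6.44% lower in WT, and 7.94% and 7.6% in ROBO. Il22ra1 and Stat3 were lower in bottom-rich than in bottom-poor runs, at 0.464 against 0.913 per 10000 and 0.664 against 1.16. The pooled levels of Myd88, the adaptor of bacterial sensing, Socs3, a feedback inhibitor of STAT3, and Nfkbiz stood higher, at 0.439 against 0.309, 0.389 against 0.272 and 0.602 against 0.442. In WT, however, their log2 ratios had intervals that included 0, at 0.11 (-0.49 to 0.72), 0.48 (-0.13 to 1.10) and 0.31 (-0.18 to 0.81). In ROBO the interval included 0 for Socs3 (0.53, -0.18 to 1.25) but not for Myd88 (0.92, 0.30 to 1.56) or Nfkbiz (0.59, 0.05 to 1.14).

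Other epithelial defence genes did not follow a single member. Of 36 listed, 20 were counted between genotypes over all cells, 2 were 2-fold higher in ROBO (Sprr1a and Zg16) and 3 lower (Ang4, a Paneth cell ribonuclease, Mptx1 and Mptx2), where 2.77% of all genes counted passed in either direction. Sprr1a had only 5 and 15 UMIs in WT and ROBO, and 1 cell held 62.0% of the Mptx2, 26.9% of the Mptx1 and 23.5% of the Zg16 UMIs. In bottom-poor runs alone Zg16 (12 and 3 UMIs) and Sprr1a (4 and 1) had log2 ratios of -1.98 each and Mptx1 1.78 (13 and 44), so the direction of these 3 turned. Between the kinds of run 18 were counted in each genotype, with 8 higher and 4 lower in bottom-rich runs of WT and 6 higher and 6 lower in those of ROBO, beside 6.44% and 6.44% of all genes in WT and 7.94% and 7.6% in ROBO. Dmbt1, a mucosal scavenger receptor, stood at 42.6 per 10000 in bottom-rich and 2.61 in bottom-poor runs, the direction of Reg1. Tifa, an adaptor in sensing of bacterial sugars, stood at 0.338 and 1.45, and Sprr2a3, a small proline-rich protein, at 0.372 and 2.15, the direction of Reg3b. Dmbt1, Il18 and Gsdmc2, Gsdmc3 and Gsdmc4 were among the bottom enterocyte markers that named the cells by which runs were divided, so their direction is not independent of that division. Saa1, which often rises with Reg3 lectins, had 0 UMIs in WT and 2 in ROBO.

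The genes most like each member were ranked by Pearson's r over 22 points, the clusters in each genotype, which share libraries. Reg1 was most like Abcd3 (r 0.873), Adh6a, Arg2, Aldh1a1 and Ms4a18, and Reg3a most like Adh6a (r 0.870), Ces2a, Mdh1, Aldh1a1 and Abcd3, so 3 of the 5 genes were shared. Reg3b was most like Sema3b (r 0.862), Bcl3, Slc39a14, Anapc2 and Tacc2. Reg3g was most like Slc30a10 (r 0.856), and Cltb, Tep1 and Slc25a1 were also among its most alike genes. Among the members, r was 0.846 for Reg1 with Reg3a, 0.447 for Reg3b with Reg3g and -0.235 for Reg1 with Reg3b. By Spearman's rho instead, 0 of the 5 genes were the same for Reg1, 0 for Reg3a, 1 for Reg3b and 2 for Reg3g.

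The remaining Reg genes had other patterns. Reg2 had 2 UMIs in 1 WT cell and none in ROBO, and Reg3d had none in either matrix, which allows up to 0.0112 per 10000 in WT and 0.0124 in ROBO. Reg4, a member that marks secretory and enteroendocrine cells, had 349 UMIs in WT and 191 in ROBO, and stood at 12.6 per 10000 in WT and 9.28 in ROBO secretory-like cells.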

How the data were processed

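Crypt cells of WT and ROBO mice were isolated in droplets on the BioRad ddSEQ and sequenced as 3′ libraries (SureCell WTA 3′) with UMIs. The deposited values are raw UMI counts per gene and cell, which the authors made in BaseSpace and pooled into 1 matrix per genotype. The submitters' processing notes name the builds mm10 and GRCm38. The aligner and the cell calling are not given in the sources used here. The authors' own comparisons of cell classes were not used. A 3′ count does not scale with transcript length, and reads shared by similar members may be lost or split.

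Clustering followed the study's approach with Seurat 5.3.0 in R 4.3.3, on log-normalized counts scaled to 10000, from 13201 genes detected in at least 3 cells, with 2000 variable genes, S and G2M scores (42 and 54 genes) regressed out, 20 principal components and resolution 0.8. The 7 Reg genes were left out of the variable genes. A cluster was named from at least 3 markers of a list raised 1.5-fold and present in 10% of its cells. All deposited cells were kept. Scrublet (scanpy 1.11.5) called 2 WT and 4 ROBO doublets, few for droplet data, and an alternative left them out. The members, gene lists and markers were chosen with earlier results of these data known. Named genes were the members, the other Reg genes, the pathway genes listed by role where a count needed them, and the 5 genes most like each member among genes with at least 200 UMIs, on log2(UMIs per 10000 + 0.1). One gene that this rule names is not reported here.

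Levels carry exact Poisson intervals, ratios of levels conditional exact intervals, shares of cells Clopper-Pearson intervals and differences of shares Newcombe intervals, all at 95% (scipy 1.17.1). A level of 0 was given the limit that 3 UMIs allow or the upper bound of its interval. Thinning to 912 UMIs, the lower quartile, left out shallower cells. With 1 pooled sample per genotype there was no replicate error and no test. Counts for ROBO over WT in all cells were simulated as pooled sums with counting error only (10634 genes, 200 changed). There 95.8% of intervals held the true ratio and 99% of changed genes had the right sign. The simulation had no spread between cells or runs. It therefore checks how the intervals were computed and not whether they are wide enough for these data. Transcripts were aligned with biopython 1.88, and figures were drawn with matplotlib 3.10.9. Alternatives changed the clustering, the cells kept, the scaling, the thinning and the minimum of UMIs, and those on runs of cells (kinds of run apart and each run left out in turn), on the 5 cells with the most UMIs and on likeness over runs were added after the data were seen.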

Additional observations from a re-analysis of the deposited data

Results flagged for a closer look

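Some genotype differences of Reg1 had opposite directions in different cell classes, with counting intervals that did not include 0. The log2 ratio of ROBO over WT for Reg1 was 0.73 in bottom enterocyte-like cells, but -1.25 in stem cell-like, -0.37 in transiently amplifying-like and -1.77 in secretory-like cells. In bottom-rich runs neither crypt nor secretory-like cells stood above the Reg1 level of immune-like cells (1.74 per 10000, 0.794 to 3.30). For Reg3g it was 0.38 in stem cell-like cells, but -0.63 in transiently amplifying-like and -2.22 in top enterocyte-like cells. Without ROBO run 4, which gave 64 of the 143 ROBO UMIs, the stem cell value was -0.28 (-0.71 to 0.14), and without WT run 4 it was 1.01. Without WT run 2 the top enterocyte value was 0.54. The differences between classes were not tested. Without WT run 5 the value of Reg3g in transiently amplifying-like cells was -1.45 and that of Reg1 in secretory-like cells -0.53, and without ROBO run 6 the latter was -2.65. The secretory value of Reg1 rested on 25 WT and 7 ROBO UMIs and the top enterocyte value of Reg3g on 35 WT UMIs, of which 5 cells held 94.3%. Reg4, which is no member of the group described and enters no comparison, had 349 UMIs in WT and 191 in ROBO, above the limit that a count of 0 allows.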

How the results depend on the processing

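No paired analysis was possible because the cell names carry no library or replicate number, and for the same reason leaving out each replicate and a replicate block were not run. Between 157 and 609 cells were called bottom enterocyte-like over the clusterings, against 243 in the one reported. Values are log2 ratios, and the cause of each change was not tested.

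For ROBO over WT, equal weight for each cell gave -0.045 for Reg1, opposite in direction to the value reported, and -0.50 for Reg3b. Bottom-rich runs alone gave 0.37 for Reg1, 0.48 for Reg3b, which turned the direction, and -0.62 for Reg3g. Bottom-poor runs alone gave -0.78 for Reg1 and -0.98 for Reg3a, both turned, and -0.55 for Reg3b. Leaving out the 5 cells with the most UMIs gave -0.61 for Reg3b and -0.35 for Reg3g. With each run of cells left out in turn, added after the data were seen, Reg1 ranged from -0.38 to 0.90, Reg3a from -0.14 to 1.05, Reg3b from -0.95 to -0.0037 and Reg3g from -0.42 to 0.23.

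For bottom enterocyte over crypt, Reg1 and Reg3a stayed higher under every alternative run. Reg1 in WT was 3.77 with Reg genes in the clustering, 2.73 at resolution 0.4, 2.94 and 2.74 with 10 and 30 principal components, 2.60 with the larger set of variable genes, 3.01 with equal weight and 2.96 in bottom-rich runs. In ROBO it was 4.37 with 10 components, 4.43 and 4.27 with the smaller and larger gene sets and 3.85 in bottom-rich runs. Reg3a in WT was 1.54 and 1.86 at resolutions 0.4 and 1.2, 1.77 with 30 components, 1.79 with the larger gene set and 2.26 with equal weight.

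Reg3b in WT was -2.80 at resolution 0.4, -2.78 and -4.01 with 10 and 30 components and -4.08 with the larger gene set, and turned to 3.12 in bottom-rich runs. In ROBO it was -3.38, -2.42, -3.28 and -3.13 under the same settings, -1.21 without regression of phase, -1.06 for cells with at least 500 genes, and turned to 1.78 in bottom-rich runs. Reg3g in WT was -1.15 at resolution 0.4, -1.70 with 30 components, -1.70 with the larger gene set and 2.43 in bottom-rich runs. In ROBO it was -2.03, -1.95 and -1.89 under the same settings and -0.081 without regression, and turned to 0.34 for cells with at least 500 genes and 1.30 in bottom-rich runs.

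Within classes, ROBO over WT turned direction for Reg3a in middle enterocytes in bottom-poor runs (-1.05) and for Reg3b there in bottom-rich runs (0.58). In transiently amplifying cells with 10 components, the larger gene set, no regression and bottom-rich runs, Reg3b turned to 0.074, 0.25, 0.21 and 1.31 and Reg3g to 0.39, 0.35, 0.17 and 0.47. Reg3g in stem cells turned to -0.34 at resolution 1.2, -0.26 with 10 components, -0.056 with the larger gene set, -0.28 without regression and -0.73 for cells with at least 500 genes. With each run left out in turn, Reg3b ranged from -1.20 to 0.13 in stem cells, from -1.59 to 0.12 in amplifying cells, from -0.52 to 0.17 in middle and from -2.44 to 0.22 in top enterocytes, and Reg3g from -0.28 to 1.01 in stem cells and from -2.64 to 0.54 in top enterocytes. In all and apart from runs left out, 104 values that answer a comparison moved by less than their counting interval, 40 moved by more and 8 turned direction. Few UMIs limited Reg3a throughout and every member in immune-like cells.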

Other observations

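Across the 13 runs, which differ in depth and in make-up, Pearson's r was 0.929 for Reg1 with Reg3a, 0.908 for Reg3b with Reg3g and -0.946 for Reg1 with Reg3b, and the gene most like Reg1 was Gsdmc4 (r 0.981), a gasdermin of lower villus enterocytes that also marks the class by which the runs were divided. By Pearson's r, Sema3b was most like Reg3b both across runs (r 0.981) and across clusters, while by Spearman's rho it ranked 2 across runs and 4 across clusters. Reg4 in enteroendocrine-like cells came to 154 UMIs in WT, all in 2 of 16 cells, and to 1 UMI in ROBO.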
